A study of Sus scrofa with 20 samples.

Results

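A group of 9 genes of the complement system were described in backfat and liver of the pig. They were chosen by name: C5, C6, C7, C8A, C8B and C9 of the terminal pathway, and the regulators CFD (factor D), CFI (factor I) and CFP (properdin). The symbols were mapped to pig Ensembl identifiers, and all 9 were among the 31907 genes of the count table. Backfat and liver of 5 Nanchukmacdon boars, a Korean pig line, had been sequenced as bulk tissue to compare expression between both tissues. The labels call every sample wild type and normal, give an age of 22 months, and name no treatment. The study's methods give the boars a different average age. Libraries are named here by tissue and by the number in the column names of the count table (65, 67, 69, 71 and 72). This number was read as that of the boar, which the column names do not state. Polyadenylated RNA was sequenced in 5 libraries per tissue, with totals of 45157114 to 61772737 counts in backfat and 43820042 to 53768601 in liver.

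Complement is a cascade of plasma proteins that marks and lyses microbes. Once C3 has been activated, C5 is cleaved, and C5b gathers C6, C7, C8 and several copies of C9 into the membrane attack complex, a pore in the target membrane. Factor D is the protease that cleaves factor B in the alternative pathway, properdin stabilizes the alternative pathway convertase, and factor I cleaves C3b and C4b to halt the cascade. Hepatocytes make most circulating complement proteins, adipocytes are a known source of factor D (adipsin), and properdin comes mainly from leukocytes.

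Levels are CPM, that is counts scaled to a common library total, with the TMM factors that adjust for library composition. Liver carried the higher level of 8 of the 9 genes, and backfat that of CFD alone. Fold changes are log2 of backfat over liver, so a negative value means higher in liver. Calls required a Benjamini-Hochberg adjusted p no larger than 0.05 together with a log2 difference of 2 or more in size, by the edgeR quasi-likelihood test over 16275 genes. Of the 9 genes, 7 were called higher in liver, where 11.2% of all tested genes were, and 1 was called higher in backfat, where 11.1% were. CFP passed the test but not the fold threshold. All 9 had an adjusted p of at most 0.05, as had 55% of all tested genes. In 8 of the 9 every liver library lay above every backfat library (19.7% of all tested genes), and in 1 the reverse held (22.9%). The median log2 fold change of the 9 genes was -7.59, beside 0.00014 over all tested genes. In bulk tissue, fewer cells of a type and less RNA per cell cannot be told apart.

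**Figure D1:**
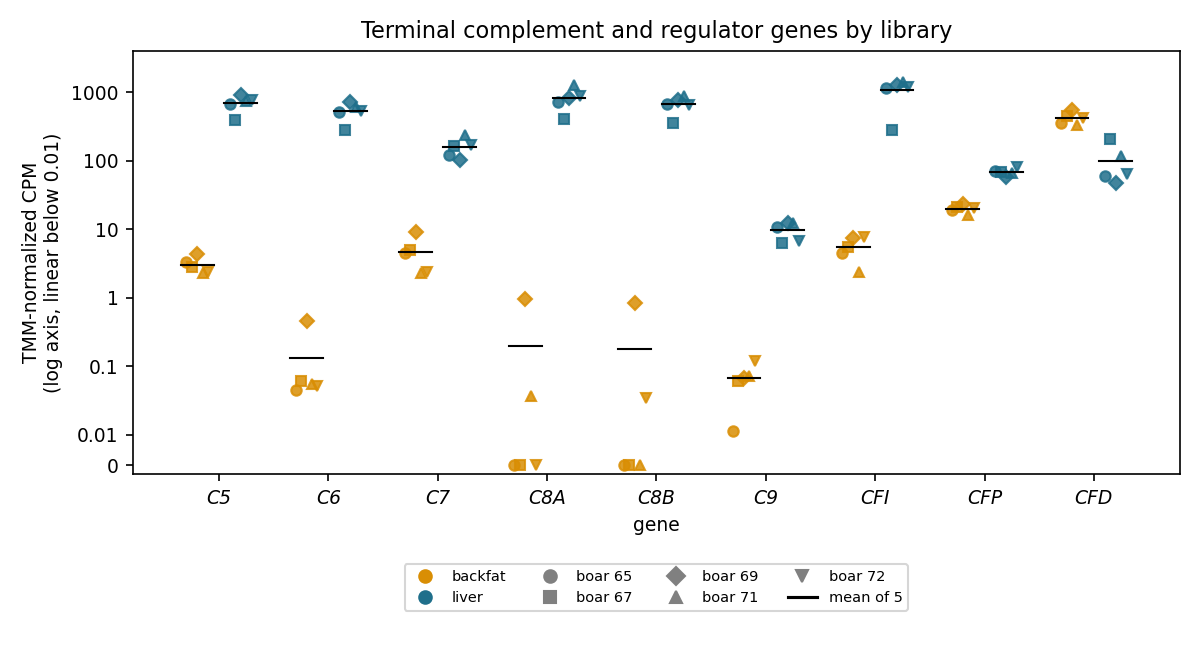
TMM-normalized CPM of each of the 9 genes (log axis, linear below 0.01) in the 5 backfat and 5 liver libraries, 1 point per library. The liver points lie above all backfat points for 8 genes, and for CFD the backfat points, from 334.7 to 550 CPM, lie above the liver points, from 47.03 to 207.8 CPM.

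Some libraries stood apart. Liver 67 held 44.5% of its counts in the 13 genes of the mitochondrial genome, against 6.38% to 20.2% in the other libraries, and its summed hepatocyte markers (11 of 12 listed genes in the table) were 30.1% of the mean of the other 4 livers. Backfat 69 had the highest hepatocyte sum of its tissue, 589 CPM against 168.9 in the lowest backfat library, and liver libraries reached 120512 CPM. Most of the backfat sum was APOA1, an apolipoprotein present in every backfat library. Without it the sum was 107 CPM in backfat 69 and 0.973 to 2.23 CPM in the other 4. Liver 67 also had the highest liver sums of skeletal muscle markers (180.3 CPM against 0.956 to 1.95 in the other 4 livers), red cell markers (1837 against 73.1 to 384), neutrophil markers (27.8 against 3.31 to 9.49) and lymphocyte markers (69.5 against 23.0 to 44.7). Adipocyte markers (9 of 10 in the table) summed to 13119 to 17419 CPM in backfat and to 207 to 1203 CPM in liver. Most of the liver sum was PCK1, itself called higher in liver, and the other 8 summed to 17.7 to 27.4 CPM there. Each tissue thus carried its own defining markers. Replicate libraries correlated at 0.960 to 0.987 in backfat and 0.920 to 0.985 in liver across genes, which are not independent replicates.

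Shown are the stretches upstream of 4 of the 5 genes that hold the C/EBP core, a motif of factors active in hepatocytes and adipocytes. CFP holds it too but is not shown, and C8A, C8B and CFI lack it in this window. Each stretch is the 250 bases before the start of the RefSeq gene on Sscrofa11.1, 5′ to 3′ on the strand of the gene. C5 lies at chr1:261088869-261089118, C6 at chr16:26089519-26089768, C9 at chr16:24575940-24576189 and CFD at chr2:77511989-77512238, all on the minus strand. Capitals mark the motifs searched, on either strand: the C/EBP core TTGCNNAA, the HNF4 repeat CAAAGTCCA, the TATA box TATAAA and the CCAAT box CCAAT. No marked motifs overlapped.
C5: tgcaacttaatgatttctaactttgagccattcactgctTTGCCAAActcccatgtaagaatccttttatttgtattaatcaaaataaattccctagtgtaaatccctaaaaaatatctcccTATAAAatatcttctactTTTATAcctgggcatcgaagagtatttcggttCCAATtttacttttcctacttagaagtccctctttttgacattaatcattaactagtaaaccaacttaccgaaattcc
C6: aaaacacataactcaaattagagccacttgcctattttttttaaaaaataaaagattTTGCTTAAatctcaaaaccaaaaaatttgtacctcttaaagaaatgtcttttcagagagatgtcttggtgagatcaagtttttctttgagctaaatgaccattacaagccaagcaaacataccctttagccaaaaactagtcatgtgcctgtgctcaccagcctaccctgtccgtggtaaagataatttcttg
C9: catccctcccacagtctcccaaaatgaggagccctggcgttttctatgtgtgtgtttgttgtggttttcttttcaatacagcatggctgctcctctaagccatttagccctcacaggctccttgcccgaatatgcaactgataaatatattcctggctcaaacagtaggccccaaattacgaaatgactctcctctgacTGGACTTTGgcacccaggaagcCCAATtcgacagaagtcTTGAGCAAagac
CFD: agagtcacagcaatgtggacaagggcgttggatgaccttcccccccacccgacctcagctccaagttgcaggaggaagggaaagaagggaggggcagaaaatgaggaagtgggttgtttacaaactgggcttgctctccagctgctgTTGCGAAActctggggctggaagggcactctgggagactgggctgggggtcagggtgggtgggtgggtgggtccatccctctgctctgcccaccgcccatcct

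The C/EBP core was found in 5 of the 8 genes with a complete start in the annotation (C5, C6, C9, CFD and CFP), and in 8.22% of 19556 promoters of the same length. It lay 211 to 204 bases before the start of C5, 193 to 186 before that of C6, 12 to 5 before that of C9 and 103 to 96 before that of CFD. C9 alone held the HNF4 repeat, read on the reverse strand 51 to 43 bases before its start, and 0.317% of all promoters held it. The TATA box was found in C5 only (9.77% of all promoters). Its letters lay 128 to 123 bases before the start of C5 and, on the reverse strand, 110 to 105 bases before it. The CCAAT box was found in C5 and C9 (31.9% of all promoters), and the HNF1 consensus in none of the 8 (0.0102% of all promoters). The start of C7 is partial in the annotation, so its upstream stretch was not counted. A match describes these letters and is not evidence of binding.

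C5 starts the terminal pathway when it is cleaved. The gene (ENSSSCG00000005512) lies on chromosome 1 at 260995662 to 261088868, minus strand, with up to 41 exons. In backfat its level was 3.32, 2.84, 4.37, 2.29 and 2.35 CPM in boars 65, 67, 69, 71 and 72. In liver it was 660, 391, 892, 745 and 757 CPM in the same order. The lowest liver library was therefore far above the highest backfat library. Means were 3.03 ± 0.857 CPM in backfat and 689 ± 186 CPM in liver (SD, n = 5), with a log2 fold change of -7.83 (SE 0.36, adjusted p = 7.84e-09 by edgeR). Within single boars, liver exceeded backfat by 138 to 326 times.

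C6 binds C5b, and its backfat counts were few. The gene (ENSSSCG00000016861) lies on chromosome 16 at 26023646 to 26089518, minus strand, with 24 exons. Backfat levels were 0.0451, 0.0610, 0.454, 0.0541 and 0.0515 CPM, from 4, 4, 27, 3 and 3 counts. Liver levels were 518, 276, 705, 612 and 535 CPM. Backfat 69 stood above the other 4 backfat libraries, and no backfat library came near the liver range. The log2 fold change was -11.97 (SE 0.76, adjusted p = 8.23e-08 by edgeR). Over the other 4 backfat libraries, with 14 counts in all, liver was 10130 times higher (95% Poisson interval 6037 to 18529, counting error only), and without backfat 69 the fitted log2 fold change was -13.23.

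C7 anchors the growing complex to the membrane, and it differed least between tissues among the terminal genes. The gene (ENSSSCG00000016859) lies on chromosome 16 at 25846860 to 25902707, plus strand, with 19 exons and a partial model. Its backfat levels were 4.49, 4.99, 8.97, 2.25 and 2.33 CPM. Its liver levels were 119, 160, 101, 234 and 167 CPM. Backfat 69 was the highest of its tissue and liver 69 the lowest of its tissue, yet the groups did not overlap. Means were 4.61 ± 2.73 and 156 ± 51.5 CPM (SD, n = 5), with a log2 fold change of -5.08 (SE 0.43, adjusted p = 8.01e-07 by edgeR). Liver exceeded backfat by 11.3 times in boar 69 at the least and by 104 times at the most.

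C8 is built of 3 chains, the products of C8A, C8B and C8G. C8A (ENSSSCG00000003835, chromosome 6 at 155464855 to 155530473, minus strand, 11 exons) and C8B (ENSSSCG00000003834, chromosome 6 at 155411982 to 155453034, plus strand, 12 exons) lie tail to tail, 11820 bases apart. In backfat C8A had 0, 0, 57, 2 and 0 counts, which are 0, 0, 0.959, 0.0360 and 0 CPM. C8B had 0, 0, 50, 0 and 2 counts, which are 0, 0, 0.841, 0 and 0.0343 CPM. Backfat 69 thus held 57 of 59 backfat counts of C8A and 50 of 52 of C8B. A count of 0 allowed up to 0.0338 to 0.0541 CPM in a backfat library (3 counts). In liver C8A reached 716, 409, 818, 1271 and 870 CPM, and C8B 668, 353, 754, 874 and 645 CPM. Every liver library lay far above every backfat library for both genes. The log2 fold changes were -12.03 (SE 1.41, adjusted p = 1.37e-05) for C8A and -11.91 (SE 1.32, adjusted p = 8.79e-06) for C8B by edgeR. Without backfat 69 they were -16.31 and -16.00. Each gene then rested on 2 backfat counts, so that liver was 109464 times higher for C8A (95% Poisson interval 30303 to 903880) and 88271 times higher for C8B (24436 to 728878). These intervals cover counting error only, and 2 counts do not fix the size of either ratio.

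The third chain, C8G (ENSSSCG00000005840, on an unplaced scaffold), is not one of the 9 genes and is given for comparison. It read 3.01, 4.94, 4.04, 4.31 and 5.35 CPM in backfat and 662, 1305, 795, 1603 and 1001 CPM in liver. Its backfat libraries lay close together and backfat 69 did not stand out, unlike for C8A and C8B. The log2 fold change was -7.95 (SE 0.39, adjusted p = 1.26e-08 by edgeR).

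C9 forms the ring of the pore. The gene (ENSSSCG00000016856) lies on chromosome 16 at 24521318 to 24575939, minus strand, with 12 exons. Backfat held 1, 4, 4, 4 and 7 counts, or 0.0113, 0.0610, 0.0673, 0.0721 and 0.120 CPM. Liver held 432, 233, 585, 391 and 246 counts, or 10.8, 6.29, 12.4, 12.4 and 6.67 CPM. All liver libraries lay above all backfat libraries, but at a low level for liver, where the mean was 9.70 ± 3.02 CPM (SD, n = 5). The log2 fold change was -7.20 (SE 0.48, adjusted p = 1.13e-07 by edgeR).

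Levels of different genes can be compared only per length, as CPM per kilobase of exon, a scale that depends on the annotated lengths. On that scale the liver means were 369 ± 141 for C8A, 314 ± 112 for C8G, 179 ± 54.1 for C6, 177 ± 74.7 for CFI, 122 ± 35.8 for C8B, 95.2 ± 25.8 for C5, 90.1 ± 60.4 for CFD, 31.2 ± 10.3 for C7, 9.87 ± 1.16 for CFP and 3.10 ± 0.965 for C9 (SD, n = 5). The ranges of neighbours in this order overlapped, except between C7 and CFP and between CFP and C9. C9 was therefore the lowest of the terminal genes in liver per kilobase, at 0.0177 ± 0.00374 of C6 and 0.00891 ± 0.00258 of C8A in the same library (SD, n = 5). C8A stood at 2.99 ± 0.415 times C8B, and C6 at 1.87 ± 0.128 times C5. Both ratios depend on exon length, 2211 bases for C8A, 5401 for C8B, 2951 for C6 and 7234 for C5. The liver means in CPM were 817 for C8A, 659 for C8B, 529 for C6 and 689 for C5. Coding lengths of C8A and C8B were 1770 and 1773 bases. C8G has 3420 exon bases in the count table, in a RefSeq gene of 1857, and CFP has 6934, in one of 7126. Their places in the order of both tissues thus depend on the annotation.

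**Figure D2:**
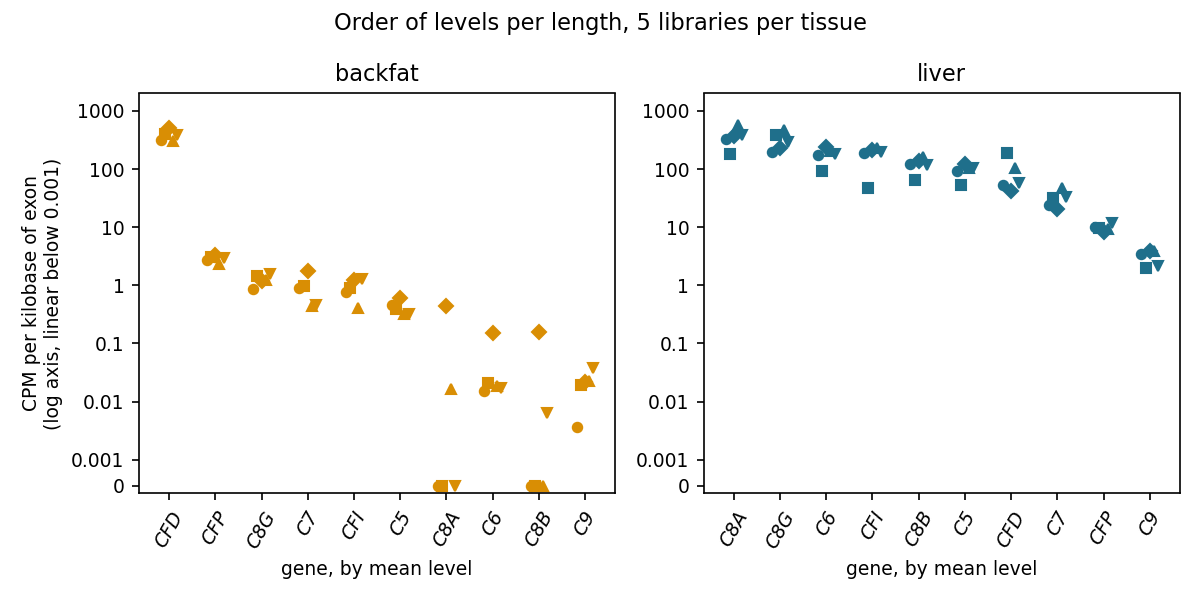
CPM per kilobase of exon (log axis, linear below 0.001) of the 9 genes and C8G in each library, ordered by mean level within backfat and within liver. Point shapes give the boar (circle 65, square 67, diamond 69, triangle up 71, triangle down 72). C8A leads in liver and C9 is last, and CFD leads in backfat.

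The order was another one in backfat, where CFD led at 382 ± 79.0 CPM per kilobase of exon and CFP followed at 2.87 ± 0.374 (SD, n = 5). Below CFP came C8G, C7, CFI and C5 at means of 1.27, 0.918, 0.917 and 0.419, and then C8A, C6, C8B and C9 at 0.0900, 0.0451, 0.0324 and 0.0212, on the same scale. Only CFD and CFP, and CFP and C8G, had ranges that did not overlap as neighbours. Among the 6 terminal genes of the 9, C7 held the first place in backfat and stood below C5, C6, C8A and C8B in liver. The ratio of C7 to C5 per kilobase was 1.42 to 2.95 in backfat and 0.164 to 0.592 in liver, without overlap. The ratio of C7 to C6 was 11.6 to 58.5 in backfat and 0.0846 to 0.341 in liver. These ratios are descriptions with no test.

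Factor D was the one gene of the 9 that was higher in backfat. CFD (ENSSSCG00000013418) lies on chromosome 2 at 77509792 to 77511988, minus strand, with 5 exons, inside the span of MED16 but sharing no annotated exon with it. In backfat it read 347, 445, 550.05, 335 and 421 CPM in boars 65, 67, 69, 71 and 72. In liver it read 59.4, 208, 47.0, 116 and 64.3 CPM. Every backfat library lay above every liver library, and liver 67 was the highest liver, at 290.1% of the mean of the other 4. Means were 419.6 ± 86.8 and 98.9 ± 66.3 CPM (SD, n = 5), with a log2 fold change of 2.09 (SE 0.39, adjusted p = 0.000616 by edgeR). The ratio of backfat to liver was 2.14 to 11.7 within single boars. The call sat at the edge of the fold threshold: the log2 fold change was 1.97 without backfat 69, 1.97 without liver 65, 1.90 without liver 69 and 1.92 without liver 72, which ended the call each time, although the adjusted p stayed at or below 0.00274. Without liver 67 it was 2.51, and without liver 67 and backfat 69 together 2.43. Per kilobase of exon CFD ranked 88 among tested genes in backfat and 519 in liver.

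The CFD level in liver was not matched by the adipocyte markers. In the 5 liver libraries CFD stood at 14.2%, 49.5%, 11.2%, 27.6% and 15.3% of its backfat mean (boars 65, 67, 69, 71 and 72). The median over 9 adipocyte markers was 0.161% to 0.388% in the same libraries. PCK1, a gluconeogenic enzyme that liver also makes, was the exception, at 107% to 683% of its backfat mean. ADIPOQ, the gene of adiponectin, averaged 3608 CPM in backfat and 0.0344 CPM in liver. The source of the CFD reads in liver was not tested.

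Factor I was called higher in liver. CFI (ENSSSCG00000009138) lies on chromosome 8 at 112430824 to 112470844, plus strand, with 13 exons. Backfat read 4.53, 5.43, 7.49, 2.40 and 7.60 CPM. Liver read 1141, 280, 1270, 1407 and 1199 CPM. Liver 67 was far below the other livers, at 22.3% of their mean, and still above all backfat libraries. Means were 5.49 ± 2.18 and 1059 ± 447 CPM (SD, n = 5), with a log2 fold change of -7.59 (SE 0.56, adjusted p = 2.64e-07 by edgeR). Liver exceeded backfat by 51.5 to 587 times within boars.

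Properdin showed the smallest difference. CFP (ENSSSCG00000012278) lies on chromosome X at 42145754 to 42152879, minus strand, with 9 exons. Backfat read 19.2, 20.9, 23.1, 16.0 and 20.2 CPM. Liver read 69.2, 68.6, 58.2, 65.7 and 80.5 CPM. The groups did not overlap, and the spread within each was the smallest of the 9 genes, with a coefficient of variation of 13.1% in backfat and 11.8% in liver. Means were 19.9 ± 2.60 and 68.5 ± 8.04 CPM (SD, n = 5), with a log2 fold change of -1.78 (SE 0.15, adjusted p = 7.44e-07 by edgeR), under the threshold of 2. Liver exceeded backfat by 2.52 to 4.10 times within boars. Macrophage markers (9 of 9 in the table, LYZ at 0) summed to 183 to 330.0 CPM in backfat and 929 to 1476 CPM in liver. Of the 8 tested, MARCO and CD14 were called higher in liver (11.2% of all tested genes) and none in backfat (11.1%). CD14, which hepatocytes also make, averaged 754.7 CPM in liver against 29.7 CPM in backfat. Neutrophil markers (5 of 8 in the table) summed to 4.70 to 15.5 CPM in backfat and 3.31 to 27.8 CPM in liver. Lymphocyte markers summed to 16.4 to 48.4 CPM and 23.0 to 69.5 CPM. Both ranges of sums overlapped between tissues. Of 5 neutrophil genes 1 was called, higher in liver, and of 8 lymphocyte genes 0 were, where 22.3% of all tested genes were called. In 3 of 8 lymphocyte genes and 1 of 5 neutrophil genes every liver library lay above every backfat library (19.7% of all tested genes). The reverse held in 0 of either list. The part of leukocytes in the CFP difference was not tested.

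**Figure D3:**
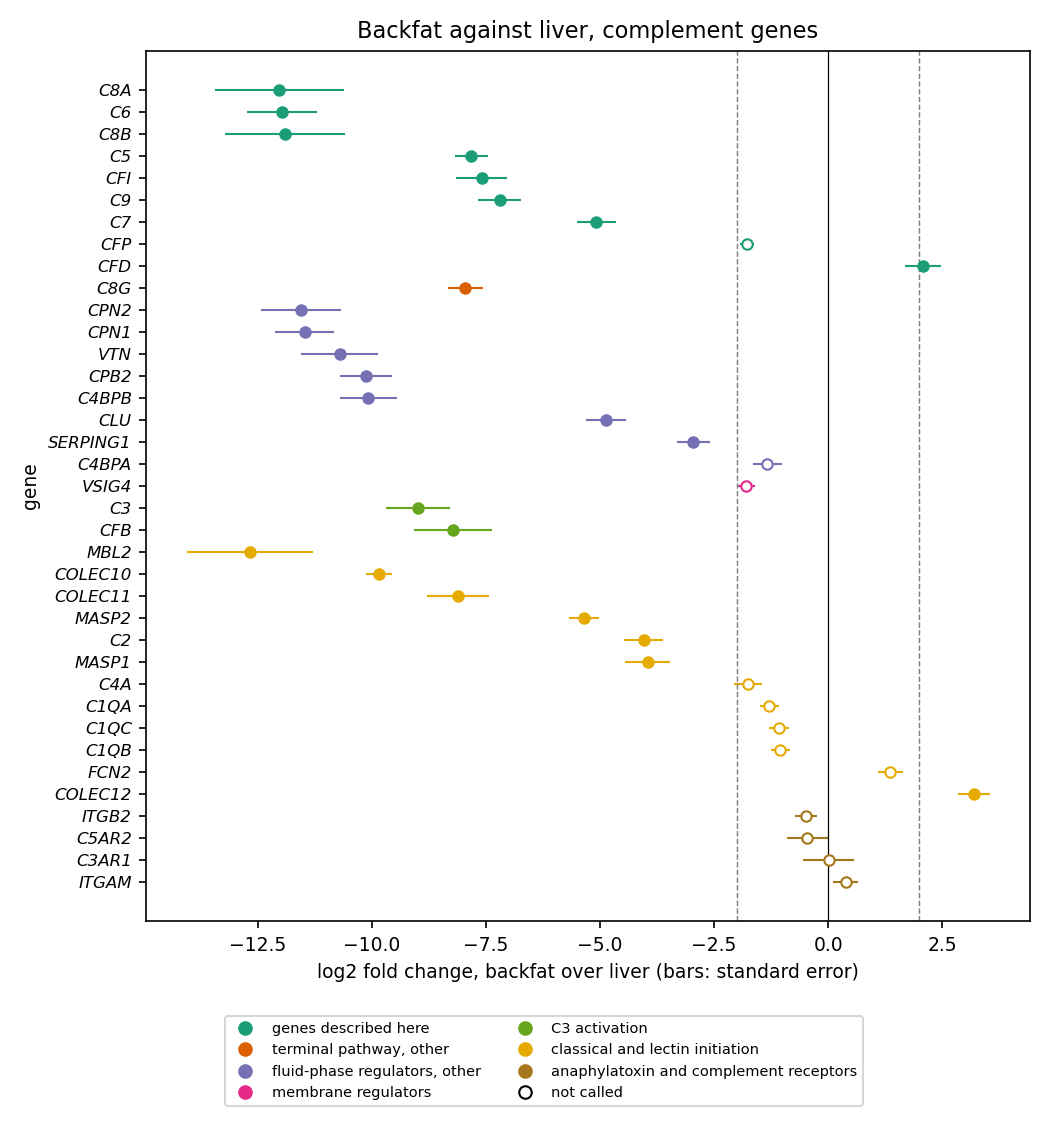
Log2 fold change, backfat over liver, of the 9 genes of the report and the other complement genes of the table, with standard errors as bars. Most lie left of 0, CFD lies right of 0, and CFP lies between 0 and the threshold of -2.

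Liver 67 and backfat 69 were extremes for most of the 9 genes. The share of all tested genes with their extreme in these libraries was not computed, so no trait of the 9 can be read from it. Backfat 71 was also the lowest backfat library for 5 of the 9, and liver 71 the highest liver for C7, C8A, C8B and CFI. In liver 67, 6 of the 9 genes had their lowest liver level: C5 at 51.1%, C6 at 46.7%, C8A at 44.5%, C8B at 48.0%, C9 at 59.6% and CFI at 22.3% of the mean of the other 4 livers. C7 and CFP were level with the others, at 103% and 100.3%, and CFD was higher. In backfat 69, 7 of the 9 genes had their highest backfat level, C9 and CFI excepted. Its levels of C6, C8A and C8B were 0.0858%, 0.117% and 0.128% of the liver mean. The median over 11 hepatocyte markers there was 0.131%, and in the other 4 backfat libraries it was 0.000385% to 0.00203%. C5, C7, C9 and CFI in the other 4 backfat libraries stood at 0.332% to 0.481%, 1.44% to 3.19%, 0.116% to 1.24% and 0.226% to 0.717% of the liver mean, above those medians. APOA1 was the highest of the markers in these libraries, at 1.15% to 1.46% of its liver mean, which is above the C5 and CFI values, and above those of C9 in all but backfat 72. The part of liver RNA in backfat 69 was not tested. Leaving out backfat 69 and liver 67 together left the log2 fold changes at -8.14 for C5, -5.46 for C7, -7.36 for C9 and -7.97 for CFI.

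**Figure D4:**
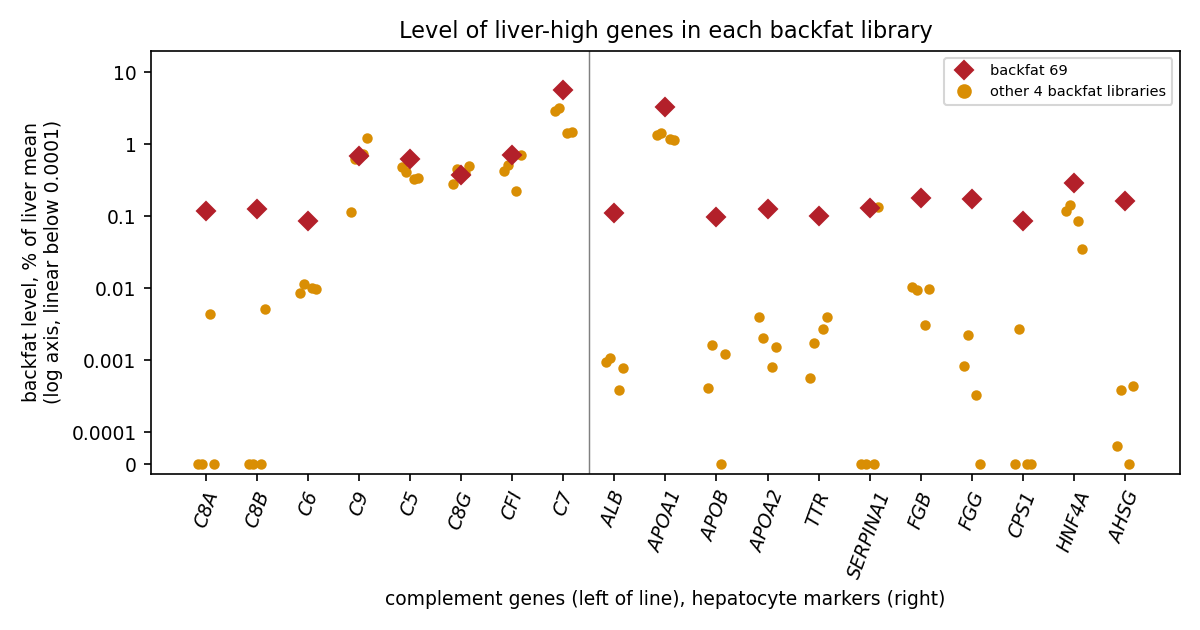
Level in each backfat library as a percentage of the liver mean (log axis, linear below 0.0001), for complement genes left of the line and hepatocyte markers right of it. Backfat 69 stands above the other libraries for C6, C8A, C8B and all hepatocyte markers but SERPINA1, and for C5, C7, C9 and CFI the libraries lie closer together.

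Around these genes, 28 of 40 other listed complement genes were matched to the table and tested. Of them, 16 were called higher in liver, where 11.2% of all tested genes were, and 1 in backfat, where 11.1% were. The latter was COLEC12, a scavenger receptor collectin, with a log2 fold change of 3.20. The other 11 were not called, and the median log2 fold change of the 28 was -4.00. Among the soluble regulators 7 of 8 were called higher in liver, with VTN (vitronectin, which blocks the terminal complex) at -10.71 and CLU (clusterin, which does likewise) at -4.87. C4BPA, a chain of the C4b-binding protein, was not called at -1.33 (adjusted p = 0.00327 by edgeR), with 277 ± 74.1 CPM in backfat and 697 ± 240 CPM in liver (SD, n = 5). Both genes of the C3 step were called higher in liver, C3 at -9.00 and CFB (factor B, the substrate of factor D) at -8.23. C3 averaged 27.6 ± 11.5 CPM in backfat and 14094 ± 6028 CPM in liver. CFB spanned 45.3 to 826 CPM in liver, with 0.807 to 1.50 CPM in backfat. Of the 4 receptor genes none was called, where 22.3% of all tested genes were in either direction, so this says little about receptors. C3AR1, the C3a receptor, had a log2 fold change of 0.02 (adjusted p = 0.983 by edgeR). Of the listed membrane regulators VSIG4 alone was matched to the table by symbol, at -1.80 and not called, and CD46, CD55, CD59 and C5AR1 were not analysed here.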

How the data were processed

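RNA-seq of backfat and liver (5 libraries each) was analysed. The authors checked reads with FastQC, trimmed adapters with Trimmomatic, used HISAT2 for alignment to Sscrofa11.1, and counted pairs over exons with featureCounts 2.0.1 on Ensembl release 99. The deposited values are raw counts per gene, with no normalization. The command in the file header sets no strand option, so reads of a gene and of an antisense partner cannot be told apart. All columns of the table were used. The 10 bisulfite libraries were not used.

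Genes passing filterByExpr by tissue (16275) were normalized by TMM over all 10 libraries and tested in edgeR 4.0.16 (R 4.3.3) with the quasi-likelihood test, tissue being the only term and p-values adjusted by Benjamini-Hochberg. The study used DESeq2 and the same thresholds. DESeq2 1.42.0, limma 3.58.1 (voom), other normalizations and filters, a boar block and leaving out libraries were alternatives. On simulated counts for 16275 genes, of which 200 had a log2 fold change of 3, edgeR recovered 190 with 1 false call. The 200 were drawn from genes whose mean level gave at least 10 expected counts in every library. No fold change near the threshold of 2, where CFD lies, was simulated, so the recovery does not cover such genes. Levels per length are TMM CPM divided by the exon length in the table. Promoters and positions are RefSeq's.

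Tissue came from the labels and the boar from the column names, since the labels' replicate numbers could not be matched to boars. Deviations from the tissue means correlated at 0.0490 to 0.238 between libraries of the same boar. Backfat 69, with 0.0490, correlated most with liver 72, and every other backfat library with the liver of its own boar. The pairing of boar 69 thus rests on the column names alone. The members and lists, other complement genes and markers included, were chosen with earlier results of these data known. Named were all 9 genes, preset complement genes where measured and, for each of the 9, the 3 genes with the smallest root mean square difference in centred log2 CPM. Some genes that this rule names are left out here.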

Additional observations from a re-analysis of the deposited data

Results flagged for a closer look

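Within each tissue, the levels of 16 complement genes in 5 libraries were searched for a library whose gap to its nearest neighbour exceeded 0.71 of the whole range. Of 32 such groups 5 did so. The cut-off flags about 1 in 20 groups only for independent, normal values. Levels near 0 and genes that vary together do not meet this, and all flags but that of CFI fell on backfat 69. The number of flags was therefore not compared with chance. In backfat 69, C6 stood at 0.454 CPM (0.0451 to 0.0610 in the other 4 backfat libraries), C8A at 0.959 CPM (0 to 0.0360), C8B at 0.841 CPM (0 to 0.0343) and VTN at 17.4 CPM (3.17 to 4.74). In liver 67, CFI stood at 280 CPM (1141 to 1407 in the other 4 livers). These are the libraries with the highest hepatocyte marker sum of backfat and the lowest of liver.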

How the results depend on the processing

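The 7 genes called higher in liver remained 7 in number with every library left out in turn (7 to 7), with DESeq2, limma-voom, other scalings and no filter. With at least 10 counts in every library they were 3 (C5, C7 and CFI), since only 5 of the 9 genes were then tested. The count called higher in backfat, 1, ranged from 0 to 1 as libraries were left out. The 16 other complement genes called higher in liver stayed at 16 to 16 and the 1 called higher in backfat at 1 to 1 as libraries were left out, and with library size alone the latter was 2 (COLEC12 and FCN2). With the boar as a block (replicate block, libraries paired by boar), 7 of the 9 genes were called higher in liver and 1 in backfat, and the block changed no other call among the genes named. C3AR1, at 0.02, changed sign to -0.00903 with DESeq2 size factors and -0.0107 with mitochondrial genes left out, and ranged from -0.28 to 0.30 as libraries were left out. Library size alone moved the median of all genes by 0.72 towards backfat and the split of calls from 1819 higher in liver and 1814 in backfat to 1340 and 2874; relative to that shift CFD (2.86) and CFP (-1.06) moved with the other genes. Over all genes the 10-count filter left 981 and 871 calls. Depth limits the backfat levels of C8A and C8B, with 0 to 2 counts in every library but backfat 69, and those of C6 and C9, with 7 counts or fewer in each library except 27 of C6 in backfat 69.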

Other observations

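The genes whose levels varied most like those of each gene over the 10 libraries were taken by the root mean square difference of centred log2 CPM. For CFD they were GATA2 (0.192), VWA5A (0.194) and ASB9 (0.201), and for CFP they were CDK18 (0.170), VSIG4 (0.185) and POLD4 (0.189). For C5 they were C1orf116 (0.244), AQP9 (0.252) and RGN (0.258), and for C6 AGMAT (0.230), DMGDH (0.286) and SERPINA7 (0.324). For C7 they were GRAMD1C (0.355) and MASP2 (0.370). For C8A they were SERPIND1 (0.381), ADH4 (0.455) and C8B (0.456), and for C8B OTC (0.356), LECT2 (0.359) and ADH4 (0.382). For C9 they were TP63 (0.415), RAB17 (0.420) and GLOD5 (0.421), and for CFI RGN (0.409), CLDN3 (0.422) and SERPINA1 (0.440). The 10 libraries fall into 2 tissues, which all these values share.

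Among the starters of the classical and lectin pathways, 12 of 16 listed genes were tested. Of these, 6 were called higher in liver (11.2% of all tested genes) and 1 in backfat (11.1%). The 3 chains of C1q, which macrophages make, were not called: C1QA had a log2 fold change of -1.29, C1QB of -1.05 and C1QC of -1.08, with adjusted p = 0.000199, 0.00112 and 0.00155 by edgeR. FCN2, a ficolin, was higher in backfat below the threshold, at 1.36 (adjusted p = 0.00104 by edgeR), with 307 ± 63.9 CPM in backfat and 120 ± 41.2 CPM in liver (SD, n = 5). MBL2, the mannose-binding lectin, averaged 369 ± 479 CPM in liver (SD, n = 5), a spread larger than its mean. Liver 71 read 1221 CPM and the other livers 91.3 to 233 CPM, so that library alone set both values. MBL2 was not among the 16 genes searched for such libraries.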
